A study of Drosophila melanogaster with 14 samples.

Results

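The 7 genes described are core genes of the Notch pathway in Drosophila melanogaster: N, Ser, neur, sca, fng, Su(H) and H. They were chosen by name, with earlier results of these data known, and matched by FlyBase identifier. All 7 were found among the 16073 genes listed in the count tables of 14 libraries. RNA came from embryonic nuclei purified by INTACT, which tags the nuclei of a chosen tissue and pulls them from a lysate by affinity. Mesodermal nuclei carried the twi-INTACT tag, and 2 wild-type libraries were made at stages 14-17 and 2 at stages 10-13. Neuronal nuclei carried the tag through elav>INTACT, again with 2 libraries at stages 14-17 and 2 at stages 10-13. A second set held mesodermal nuclei of stages 14-17 from embryos that all carried twi-INTACT and GFP-Ubx, a GFP fusion of the Hox protein Ubx. In 3 libraries, called degraded here, the genotype was twi-INTACT, Mef2>Nslmb, GFP-Ubx, where the muscle driver Mef2 expressed Nslmb, a fusion protein that marks GFP-tagged proteins for destruction. The 3 controls were twi-INTACT; UAS-Nslmb, GFP-Ubx, with no driver. The labels do not say whether replicates were separate embryo collections, so the p-values rest on the spread among these libraries, which may be technical only.

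The Notch pathway passes signals between touching cells. A ligand such as Ser on one cell binds the receptor N on its neighbour, which is then cleaved, and the freed intracellular part enters the nucleus and turns the DNA-binding protein Su(H) from a repressor into an activator. Without a signal, Su(H) is held in a repressor complex by H, and in fly embryos the pathway is known for singling out neural precursors in the neuroectoderm and muscle progenitors in the mesoderm.

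Counts assigned to genes were 12970816 to 17905141 in wild-type mesoderm and 27924215 to 36150646 in neuronal libraries, so depth and tissue cannot be told apart there. Mitochondrial counts were 0.874 to 1.51% in mesodermal and 1.78 to 6.94% in neuronal libraries, which did not overlap, and their part in the tissue differences was not tested. Degraded libraries held 24391565 to 28150883 counts and controls 24314883 to 31033963. Levels are CPM, counts scaled to a normalised library size. A list of 9 mesoderm and muscle markers summed to 37226 to 41402 CPM in mesoderm at stages 14-17 and 8064 to 8831 CPM at stages 10-13, against 3901 to 4430 CPM in neuronal libraries at stages 14-17 and 6070 to 6271 CPM at stages 10-13. Its members did not all go 1 way early. At an adjusted p under 0.05, 6 were higher in early mesoderm, beside 23.2% of all tested genes, with twi highest by a log2 difference of 6.11. Mhc was lower by −1.70, beside 29.5%. Other genes overlap 60.8% of the span of twi. A list of 9 neuron markers summed to 999 to 1342 CPM in mesoderm at stages 14-17 and 261 to 294 CPM at stages 10-13, against 717 to 915 CPM in neuronal libraries at stages 14-17 and 689 to 950 CPM at stages 10-13. At stages 14-17 the libraries labelled neuronal were thus not above mesoderm in neuron markers, and both libraries of that group shared this, so the late tissue comparison cannot be given without them. Among 6 neural precursor markers, ase and mira were at 0 in every wild-type library, and the list summed to 561 to 577 CPM in mesoderm at stages 10-13, against 191 to 255 CPM in neuronal libraries. Other genes overlap 59.2% of the span of insc and 67.1% of that of dpn, so this sum is uncertain. The wild-type tables gave 0 to 279 of 312 genes that lie wholly inside another gene and had at least 3000 counts in the second set. None of the 7 Notch genes is nested in this way.

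Across the wild-type libraries the receptor gene N, the ubiquitin ligase gene neur and the secreted modulator gene sca were far higher in early mesoderm than in any other group. The co-repressor gene H followed in the same direction with a smaller difference. Ser and Su(H) passed the test in neither tissue comparison and in neither tissue's stage comparison, and fng was higher in mesoderm at stages 14-17.

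N encodes the receptor and lies on the plus strand of chromosome X, from 3134870 to 3172221 (FBgn0004647; all coordinates are BDGP6, from Ensembl annotation). Its level was 412 and 619 CPM in mesoderm at stages 14-17 and 2494 and 2408 CPM at stages 10-13. In neuronal libraries it was 225 and 255 CPM at stages 14-17 and 275 and 249 CPM at stages 10-13. Mesoderm at stages 10-13 stood far above the rest, mesoderm at stages 14-17 came second, and the neuronal groups overlapped.

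Ser, one of the ligands of N, lies on chromosome arm 3R, minus strand, from 27172090 to 27194267 (FBgn0004197). Ser stood at 127 and 139 CPM in mesoderm at stages 14-17 and at 136 and 191 CPM at stages 10-13. In neuronal libraries the values were 89.9 and 101 CPM at stages 14-17 and 166 and 124 CPM at stages 10-13. The first 3 of these groups in order of level overlapped, and neuronal libraries at stages 14-17 lay below all others.

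The product of neur is a ubiquitin ligase that drives endocytosis of Notch ligands and so makes them able to signal. The gene lies on the minus strand of 3R, from 9020348 to 9039471 (FBgn0002932), and 38.8% of its exonic bases are overlapped by hyx and asRNA:CR31429 on the plus strand, so its counts are uncertain where strand was not used. Its level was 198 and 250 CPM in mesoderm at stages 14-17 and 650 and 579 CPM at stages 10-13. Neuronal libraries held 121 and 111 CPM at stages 14-17 and 110 and 113 CPM at stages 10-13. The order was that of N: early mesoderm, late mesoderm, then the overlapping neuronal groups. The overlapping gene hyx averaged 36.8 CPM in mesoderm at stages 14-17 and 83.2 CPM at stages 10-13, against 65.5 and 62.2 CPM in neuronal libraries at these stages.

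The secreted, fibrinogen-related protein made by sca modulates Notch signalling where proneural cells are spaced. It lies on the plus strand of 2R, from 12780541 to 12802010 (FBgn0003326). The antisense gene asRNA:CR45137 covers 72.9% of its span and 10.4% of its exonic bases, so sca is uncertain in the same way. Mesoderm held 19.3 and 18.1 CPM of sca at stages 14-17 and 358 and 286 CPM at stages 10-13. In neuronal libraries sca stood at 20.5 and 18.3 CPM at stages 14-17 and 41.3 and 46.6 CPM at stages 10-13. Early groups of both tissues lay above late ones, and the late groups of the tissues overlapped.

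The product of fng is a glycosyltransferase that lengthens sugars on N and shifts its response between ligands. The gene lies on the minus strand of 3L, from 20925891 to 20949512 (FBgn0011591), and 1.12% of its exonic bases are overlapped by CG10589. For fng the values were 212 and 238 CPM in mesoderm at stages 14-17 and 136 and 168 CPM at stages 10-13. In neuronal libraries fng stood at 125 and 91.4 CPM at stages 14-17 and 129 and 128 CPM at stages 10-13. None of its groups overlapped: late mesoderm was highest, then early mesoderm, early neuronal and late neuronal libraries. The other 6 genes had their highest mean in mesoderm at stages 10-13.

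Su(H) lies on the plus strand of 2L, from 15039488 to 15043334 (FBgn0004837), and encodes the DNA-binding protein at the end of the pathway. Its level was 28.8 and 26.9 CPM in mesoderm at stages 14-17 and 41.9 and 41.2 CPM at stages 10-13. Neuronal nuclei had 34.5 and 44.4 CPM at stages 14-17 and 33.0 and 25.8 CPM at stages 10-13. The late neuronal and early mesodermal groups overlapped at the top, and the early neuronal and late mesodermal groups overlapped at the bottom.

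H encodes the adaptor that links Su(H) to the co-repressors made by gro and CtBP, and lies on the plus strand of 3R, from 20621938 to 20628915 (FBgn0001169). H stood at 90.3 and 79.0 CPM in mesoderm at stages 14-17 and at 143 and 128 CPM at stages 10-13. In neuronal libraries it was 63.6 and 75.5 CPM at stages 14-17 and 67.9 and 59.8 CPM at stages 10-13. Early mesoderm was highest, late mesoderm second, and the neuronal groups overlapped below. Raw counts behind the wild-type values of the 7 genes ran from 201 for sca to 41376 for N.

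**Figure D1:**
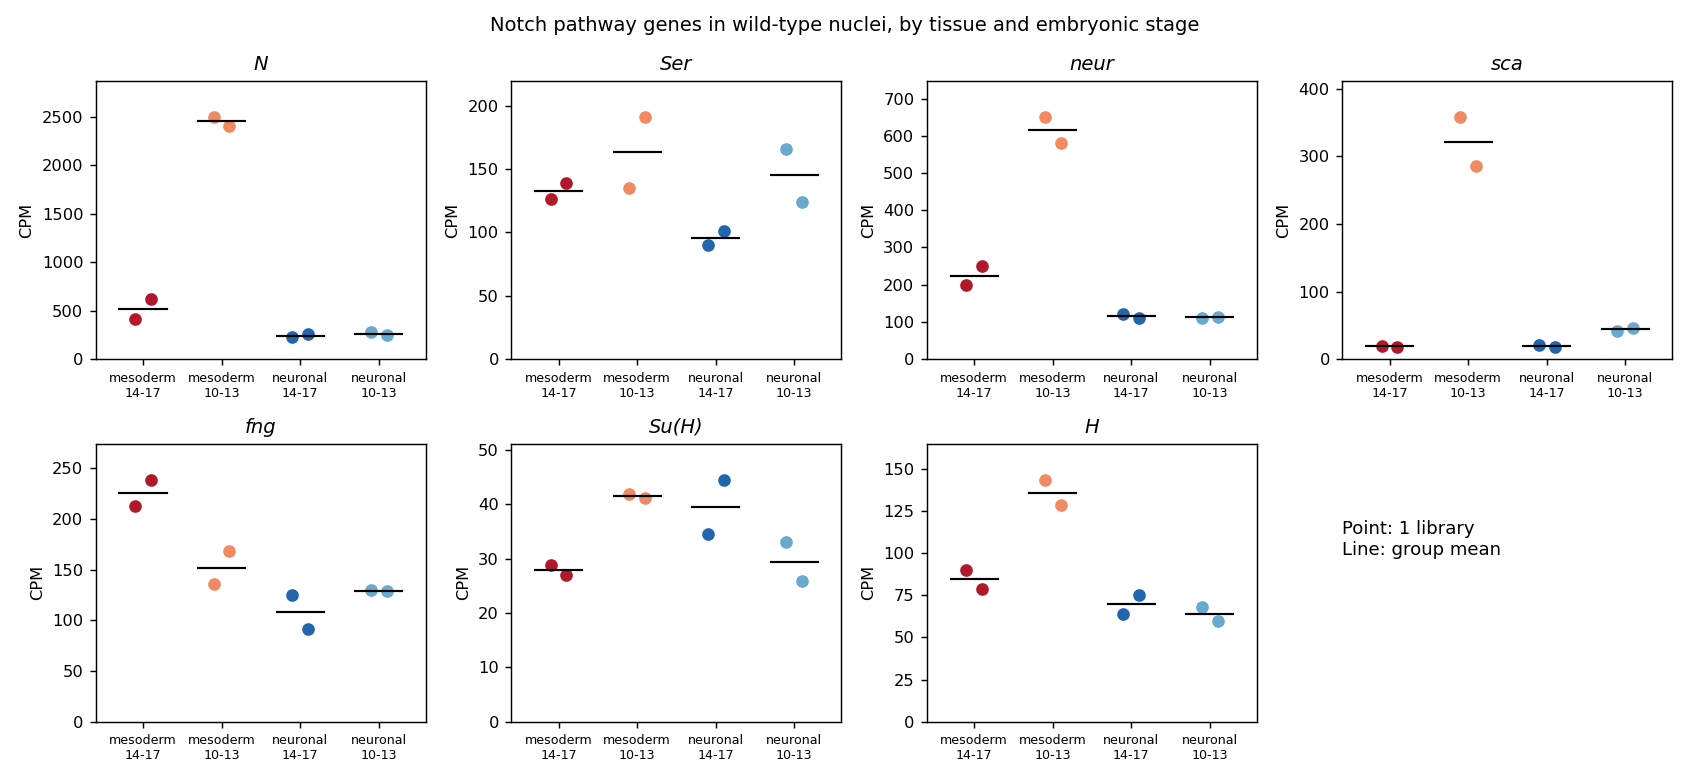
CPM of the 7 genes in wild-type mesodermal and neuronal nuclei at stages 14-17 and 10-13, on linear axes from 0; each point is 1 library and each line the mean of 2. Early mesoderm stands apart for N, neur, sca and H, at 2494 and 2408 CPM for N, while Ser and Su(H) spread over groups that overlap.

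Mesodermal nuclei at stages 10-13 were set against neuronal nuclei of the same stages to see how the tissues differ early. Of the 7 genes, 4 were higher in mesoderm at an adjusted p under 0.05 and 0 were lower, beside 23.2% of all 10549 genes tested that were higher and 29.5% that were lower. N was higher by 3.23 ± 0.26 on the log2 scale (SE), a 9.35-fold difference (adjusted p = 0.000164 after Benjamini-Hochberg adjustment of edgeR's quasi-likelihood test, as for all adjusted p below). sca was 7.32-fold higher, with a log2 difference of 2.87 ± 0.20, and neur 5.50-fold higher, with 2.46 ± 0.19. H differed by 1.09 ± 0.18, which is 2.13-fold, with an adjusted p of 0.00226. These 4 genes lay above 85.4 to 99.1% of all tested genes in this log2 difference. Ser differed by 0.17 ± 0.23, fng by 0.24 ± 0.21 and Su(H) by 0.50 ± 0.21, and none of them passed the test (adjusted p = 0.561, 0.367 and 0.0812). Su(H) passed when either late neuronal library was left out, replicate 1 or 2, at adjusted p of 0.0298 and 0.0168, and in a fit of only the 4 libraries compared, at 0.0397. In these bulk samples, more cells with a transcript and more of it per cell cannot be told apart. Neural precursor markers moved with this difference: all 4 of the 6 that could be tested, wor, insc, pros and dpn, were higher in early mesoderm. Other genes overlap 67.1% of the span of dpn, 59.2% of that of insc and 11.2% of that of pros, so these counts are uncertain. A list of 5 epidermis and trachea markers went the opposite way in sum. It summed to 1077 to 1106 CPM in early mesoderm, against 3409 to 3714 CPM in early neuronal libraries. Of these serp, verm and Cpr47Ec were lower in mesoderm, serp and verm by −3.37 ± 0.28 and −3.05 ± 0.30, and shg was higher. The part of either list in the differences of the 7 genes was not tested. With library totals alone as the scaling, 31% of all called genes were higher in place of 44%, and all 4 calls held.

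At stages 14-17 the same tissues differed less. N, neur and fng were higher in mesoderm and 0 of the 7 were lower, beside 19.0% of all tested genes that were higher and 22.1% that were lower. N differed by 1.10 ± 0.24 on the log2 scale, or 2.15-fold (adjusted p = 0.0105). The difference of fng was 1.06 ± 0.21, or 2.09-fold (adjusted p = 0.00781), and that of neur 0.94 ± 0.18, or 1.92-fold (adjusted p = 0.0074). Ser differed by 0.48 ± 0.23, H by 0.28 ± 0.18, sca by −0.06 ± 0.19 and Su(H) by −0.50 ± 0.21, and these 4 did not pass (adjusted p from 0.0926 to 0.826). Su(H) passed without neuronal replicate 1 of stages 14-17 (adjusted p = 0.0249). Without replicate 2 of mesoderm at stages 14-17 none of the 3 calls remained, with adjusted p of 0.0718 for N, 0.0628 for neur and 0.0597 for fng. Library totals alone kept the 3 calls, also called Su(H) lower, at −0.79 with an adjusted p of 0.0137, and lowered the share of all called genes that were higher to 27.9%, against 46.2%.

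The late tissue differences moved with the intron content of genes, taken as gene span over exonic length, in a comparison added after the data were seen. The classes held tested genes with under 10% of their span overlapped by other genes, which leaves out neur and sca themselves. For genes without an intron the median log2 difference at stages 14-17 was −0.80. It was 0.58 for ratios of 2 to 4, 0.97 for 4 to 8 and 1.28 for ratios over 8. N has a ratio of 3.68 and stood above the median of its class with 1.10. The values of neur, whose ratio is 4.44, and of fng, whose ratio is 12.1, were 0.94 and 1.06, at or below the medians of their classes. Of the genes counted in the class of fng 59.4% were called higher, and in that of neur 53.6%. At stages 10-13 the class medians were −0.58 for ratios of 2 to 4 and −0.11 for 4 to 8, and N, neur and sca lay at least 2.46 above 0. The sources used here do not say whether reads in introns were counted, and the part of gene structure in these differences was not tested.

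**Figure D2:**
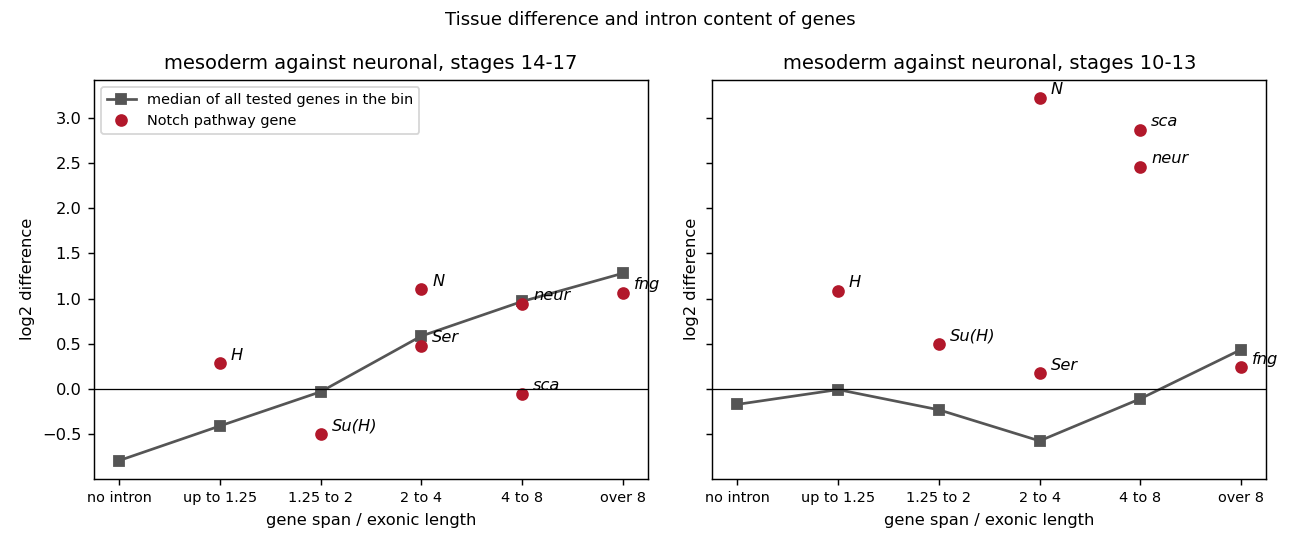
Log2 difference of mesoderm against neuronal libraries by gene span over exonic length, at stages 14-17 on the left and 10-13 on the right. Squares joined by a line are class medians of tested genes with under 10% of their span overlapped. Red points are the 7 genes, of which neur and sca are not in the medians. At stages 14-17 neur and fng lie at or below the median of their class, 0.97 and 1.28, while at stages 10-13 N, sca and neur lie well above theirs.

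Between stages 14-17 and stages 10-13, mesodermal nuclei came to hold less RNA of 4 of the 7 genes. N, neur, sca and H were lower at the later stages and 0 of the 7 were higher, beside 22.7% of all tested genes that were lower and 24.9% that were higher. The change was largest for sca, which fell by 4.11 ± 0.21 on the log2 scale and was 17.2-fold lower (adjusted p = 0.000293). N fell by 2.25 ± 0.25 and was 4.76-fold lower, and neur fell by 1.46 ± 0.18 and was 2.74-fold lower, with adjusted p of 0.000557 and 0.000925. H fell by 0.68 ± 0.18, which made it 1.60-fold lower (adjusted p = 0.0179). Its call was lost without replicate 1 of mesoderm at stages 10-13 or replicate 2 at stages 14-17, at adjusted p of 0.0787 and 0.0796. For fng the log2 difference was 0.57 ± 0.21 and for Su(H) −0.58 ± 0.21, and neither passed (adjusted p = 0.0559 and 0.0574). Both passed without either late neuronal library, at adjusted p from 0.0147 to 0.0273, and Su(H) also without either early one, at 0.0496 and 0.0482. In a fit of only the 4 mesodermal libraries they passed at 0.0164 for fng and 0.00988 for Su(H). Su(H) also passed with library totals alone (0.0153), and fng with RLE size factors, DESeq2 or all 14 libraries in 1 fit (0.0399 to 0.0494). Ser differed by −0.30 ± 0.23 (adjusted p = 0.323). The same classes of genes, with under 10% of their span overlapped, had positive medians here at the ratios of N, neur and sca. These were 0.80 for 2 to 4 and 0.87 for 4 to 8. H has a ratio of 1.16, and in its class, the lowest ratios among genes with introns, the median was −0.31 and 31.7% of genes were lower, the same direction as H. Of the neural precursor markers wor, pros and dpn fell too, with counts of pros and dpn uncertain for overlap. The list summed to 264 CPM in late mesoderm, against 561 to 577 CPM in early mesoderm. The summed neuron markers instead went up, with all 9 called higher. The part of either list or of gene structure in the 4 falls was not tested.

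In neuronal libraries sca alone passed the test between the stages. It fell by 1.18 ± 0.19 and was 2.26-fold lower at stages 14-17 (adjusted p = 0.00697), beside 12.0% of all tested genes that were lower and 8.47% that were higher. Ser differed by −0.60 ± 0.23 (adjusted p = 0.105), and Su(H) by 0.42 ± 0.21 (adjusted p = 0.19, and 0.0463 without replicate 1 of stages 14-17). N, neur, fng and H differed by −0.13 ± 0.23, 0.06 ± 0.18, −0.26 ± 0.21 and 0.12 ± 0.18. A fit of only the 4 neuronal libraries left the value of sca at −1.15 with an adjusted p of 0.0597. The 5 epidermis and trachea markers moved with sca, summing to 1249 to 1975 CPM in late neuronal libraries, against 3409 to 3714 CPM in early ones. Of these serp, verm and Cpr47Ec were lower at the later stages, serp and verm by −1.28 ± 0.26 and −1.39 ± 0.28, and sinu was higher. Their part in the fall of sca was not tested. Of 9 neuron markers 0 passed between the neuronal stages, beside 8.47% of all tested genes that were higher and 12.0% that were lower. Their largest differences were −0.74 ± 0.28 for nrv3 and 0.57 ± 0.19 for fne (adjusted p = 0.0983 and 0.0744). A change near the replicate spread could not be detected there.

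**Figure D3:**
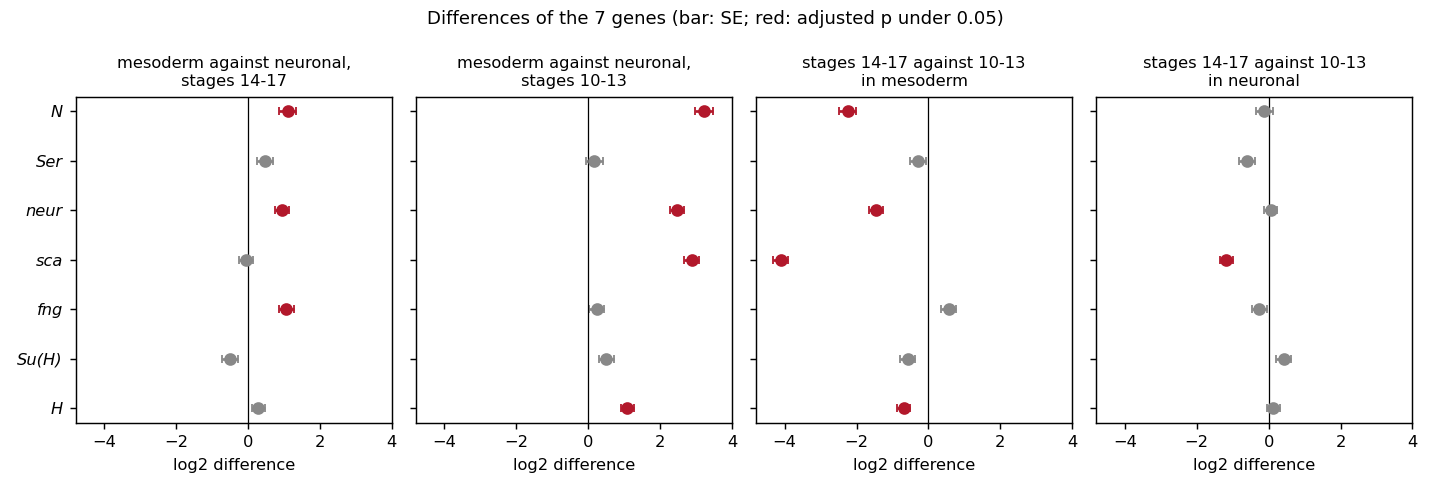
Log2 difference of the 7 genes in 4 wild-type comparisons, with bars of 1 SE; red points have an adjusted p under 0.05. The fall of sca in mesoderm between the stages, −4.11, is the largest of the 28 values, and Ser and Su(H) are red in none of the 4.

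The stage change in mesoderm was then set against that in neuronal libraries by the interaction term of the fit. It was more negative in mesoderm for N, neur, sca, Su(H) and H and more positive for 0 of the 7, beside 14.7% of all tested genes that were lower and 20.6% that were higher. The difference of the stage changes was −2.93 ± 0.27 for sca (adjusted p = 0.000746), −2.12 ± 0.34 for N (adjusted p = 0.00324) and −1.52 ± 0.26 for neur (adjusted p = 0.00436). These 3 held in all 15 alternatives run. For Su(H) it was −1.0 ± 0.30 and for H −0.81 ± 0.26, with adjusted p of 0.0362 and 0.0449. The call of Su(H) was lost without any 1 of the 4 mesodermal libraries or without neuronal replicate 2 at stages 10-13, at adjusted p from 0.0673 to 0.0803. That of H was lost without any 1 of the mesodermal or early neuronal libraries, at 0.0568 to 0.102, and without a filter on low counts, at 0.0512. fng differed the other way by 0.82 ± 0.29 and did not pass (adjusted p = 0.0629, and 0.0185 without late neuronal replicate 1), and Ser by 0.31 ± 0.33 (adjusted p = 0.488).

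Counts of Su(H) over counts of H, a ratio not corrected for length, separated the tissues. It was 0.319 and 0.341 in mesoderm at stages 14-17 and 0.292 and 0.321 at stages 10-13, against 0.541 and 0.589 in neuronal libraries at stages 14-17 and 0.431 and 0.486 at stages 10-13. All 4 mesodermal values lay below all 4 neuronal values, which is a description with no test. The counts of Ser over those of N were lowest in early mesoderm, where N was highest. This ratio was 0.225 and 0.308 in mesoderm at stages 14-17 and 0.0544 and 0.0793 at stages 10-13. In neuronal libraries it was 0.399 and 0.398 at stages 14-17 and 0.604 and 0.499 at stages 10-13, while N did not pass between these stages.

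Levels of the 7 genes can be ordered only per length. Per kilobase of exon, N led in mesoderm at stages 10-13 with 241 ± 5.94 CPM (SD, n = 2), before neur with 143 ± 11.5, sca with 84.8 ± 13.5 and fng with 77.6 ± 11.8, of which sca and fng did not differ beyond their spread. Ser followed with 28.0 ± 6.73, H with 22.6 ± 1.78 and Su(H) with 14.1 ± 0.16, and Ser and H did not differ beyond their spread. Per kilobase of gene span, N and neur also came first and second there, but H moved from place 6 to 3 and fng from place 4 to 7. At stages 14-17 fng led per kilobase of exon, with 115 ± 9.41 CPM in mesoderm and 55.1 ± 12.0 in neuronal libraries, but 3 and 4 of the other genes stood above it per kilobase of span, so its place depends on the length used. sca was last at stages 14-17 in both tissues on both scales.

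Genes most like each member over the 8 wild-type libraries were sought by Pearson's r of log2(CPM + 1) among 8259 genes of at least 10 CPM in some group, as a description. The closest to N were brat, which encodes a translational repressor, and CG6333, with r of 0.994 and 0.993. Closest to neur was lmd, a regulator of fusion-competent myoblasts, with r = 0.999 over a mean of 90.7 CPM in late and 572 CPM in early mesoderm, against 27.2 and 24.9 CPM in late and early neuronal libraries. Its next was the gustatory receptor gene Gr8a, with 0.995. sca was most like LBR, the lamin B receptor gene, with 0.992 and WRNexo with 0.990. fng was most like GluRIIB, a glutamate receptor subunit of the neuromuscular junction, with 0.991 and Asph with 0.978, and GluRIIB averaged 107 CPM in late and 34.0 CPM in early mesoderm. H was most like msps and pho, a microtubule regulator and a DNA-binding Polycomb group protein, with 0.994 for each. Su(H) was closest to Strip, with 0.991, whose counts are uncertain because 41.3% of its span is overlapped, and to tub, with 0.971. Ser had the loosest fits, CG17019 and p130CAS with 0.947 and 0.946. Among the 7 themselves r was 0.991 between N and neur, 0.954 between N and H and −0.55 between fng and Su(H). These libraries share their tissue and stage groups and their depth differences, so the 8 points are not independent.

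The rest of the pathway was read from 7 lists of 41 genes, of which 38 were in the tables and 37 were tested in the wild-type set. Psn, nct and Dl are not analysed here, and spdo, a nested gene, was at 0 in the wild-type tables. In mesoderm at stages 10-13 against neuronal libraries, 29 of the 37 were higher and 2 lower, with a median log2 difference of 1.33 beside −0.08 over all genes. That is 78.4% higher beside 23.2% of all tested genes, and 5.41% lower beside 29.5%. The lists were chosen with earlier results of these data known, so these shares are a description and not independent support. At stages 14-17 there were 8 higher, or 21.6% beside 19.0% of all genes and so near the background, and 16 lower, or 43.2% beside 22.1%, with a median of −0.61 beside −0.12. Between late and early mesoderm 26 fell, or 70.3% beside 22.7%, and 0 rose (median −0.87, all genes 0.00). In neuronal libraries 0 fell and 3 rose, or 8.11% beside 8.47% (median 0.08, all genes −0.03). The difference of these stage changes itself was negative and past the threshold for 19 of the 37, or 51.4% beside 14.7%, and positive for 0, with a median of −1.12 beside −0.11.

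The E(spl) bHLH genes encode repressors that Notch signalling switches on directly. Of the 7, 6 were higher in early mesoderm than in early neuronal nuclei, beside 23.2% of all tested genes, and 5 were lower in late mesoderm than in late neuronal nuclei, beside 22.1%. All 7 fell between the stages in mesoderm, beside 22.7%. These genes and the Bearded family genes, 15 of the 37, all lack an intron. Over tested genes without one and with under 10% of their span overlapped, 17.5% were higher in the early tissue comparison. Of the same genes 39.6% were lower in the late one and 25.9% fell in mesoderm. The part of gene structure in the differences of both families was not tested. E(spl)m5-HLH averaged 8.65 ± 3.03 CPM in mesoderm at stages 14-17 and 111 ± 1.23 at stages 10-13 (SD, n = 2), against 19.6 ± 0.60 in neuronal libraries at stages 14-17 and 17.0 ± 3.84 at stages 10-13. It had the largest early tissue difference of the list, 2.70 ± 0.28, and the deepest fall in mesoderm, −3.68 ± 0.30. E(spl)m8-HLH had the smallest called early difference, 0.95 ± 0.20, and the most negative late one, −2.27 ± 0.21, at 10.5 ± 0.86 CPM in late mesoderm against 50.3 ± 9.35 in late neuronal nuclei. E(spl)mbeta-HLH fell least in mesoderm, by 0.87 ± 0.25. E(spl)m3-HLH alone passed in neuronal libraries, where it rose by 0.78 ± 0.20, beside 8.47% of all tested genes that rose.

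Bearded family genes encode small inhibitors of the protein made by neur and are themselves Notch targets in part. Early, 7 of 8 were higher in mesoderm, beside 23.2% of all tested genes, and E(spl)m6-BFM was lower, by −0.85 ± 0.26. Late, 6 of 8 were lower in mesoderm and 0 were higher. Of all tested genes 22.1% were lower, and of the genes without an intron counted above 39.6%. Within mesoderm 7 of 8 fell, beside 22.7%, BobA by 6.0 ± 0.64 and E(spl)m2-BFM by 1.33 ± 0.20. In neuronal libraries E(spl)m2-BFM alone passed, with a rise of 0.74 ± 0.20, beside 8.47% of all tested genes that rose. Tom averaged 122 ± 56.2 CPM in late and 1462 ± 100 CPM in early mesoderm (SD, n = 2), against 293 ± 24.4 and 235 ± 45.5 CPM in late and early neuronal nuclei. The largest early tissue difference was that of E(spl)malpha-BFM, 2.78 ± 0.28, and the most negative late one that of BobA, −2.51 ± 0.61. BobA averaged 0.70 ± 0.54 CPM in late mesoderm, so its fold changes rest on few reads.

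Genes that act on the ligand beside neur were mostly higher in mesoderm. Of all tested genes 23.2% were higher early and 19.0% late. All 4 tested, mib1 and mib2, which encode ubiquitin ligases, and lqf and aux of endocytosis, were higher in early mesoderm, led by lqf with 1.43 ± 0.19. At stages 14-17 all but aux were higher, again led by lqf with 1.19 ± 0.19, and mib1 had the smallest called difference, 0.54 ± 0.18. In neither tissue did any of the 4 pass between stages. Of all tested genes 24.9% rose and 22.7% fell in mesoderm, and 8.47% rose and 12.0% fell in neuronal libraries. The level of lqf averaged 417 ± 48.1 CPM in late and 370 ± 33.9 CPM in early mesoderm (SD, n = 2).

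Receptor processing and sugar genes split between the tissues. The metalloprotease gene kuz, whose product cuts N, averaged 504 ± 22.2 CPM in late and 858 ± 102 CPM in early mesoderm, against 163 ± 10.8 and 166 ± 6.71 CPM in late and early neuronal nuclei (SD, n = 2). It was higher in mesoderm by 1.63 ± 0.18 late and 2.37 ± 0.18 early, and fell by 0.77 ± 0.18 between the stages in mesoderm. Tace, a related protease gene, was lower in early mesoderm by −1.66 ± 0.47. The γ-secretase subunit gene pen-2 was lower in late mesoderm, at −0.89 ± 0.24, and rose in neuronal nuclei, by 0.99 ± 0.24, but 42.7% of its span is overlapped by other genes and its counts are uncertain. The smallest called fall in mesoderm was that of aph-1, another subunit gene, by 0.64 ± 0.19. The 3 glycosylation genes O-fut1, rumi and shams, whose products act on sugars of N, all fell in mesoderm, beside 22.7% of all tested genes. They fell by 1.34 ± 0.22, 1.72 ± 0.20 and 1.62 ± 0.23. For fng, which acts on the fucose that O-fut1 adds, the same difference was 0.57 and did not pass. Late, all 3 were lower in mesoderm, beside 22.1% of all tested genes. O-fut1 differed most, with −1.14 ± 0.22, and shams least, with −0.84 ± 0.22. Early, shams alone was higher, by 0.75 ± 0.22, beside 23.2% of all tested genes.

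Nuclear cofactors of Su(H) and H were higher in early mesoderm for 5 of 5 genes, beside 23.2% of all tested genes. The co-activator gene mam led with 2.03 ± 0.16, and insv, which encodes another partner of Su(H), was last with 0.63 ± 0.22. At stages 14-17 nej, a histone acetyltransferase gene, was higher by 1.68 ± 0.20, and insv was lower by −1.19 ± 0.23. Within mesoderm 4 of 5 fell, beside 22.7% of all tested genes, insv by 2.18 ± 0.24 and CtBP by 0.64 ± 0.18. The gene mam differed by −0.17 ± 0.16 and did not pass. Of 6 trafficking and turnover genes tested, 3 were higher early, beside 23.2% of all tested genes. They ran from dx with 1.43 ± 0.25 to numb with 0.75 ± 0.21. Nedd4, a ubiquitin ligase gene, alone of the 6 passed late, with 1.18 ± 0.28, beside 19.0% of all tested genes that were higher. In mesoderm numb and Su(dx) fell, by 0.82 ± 0.21 and 0.55 ± 0.20, beside 22.7% of all tested genes.

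**Figure D4:**
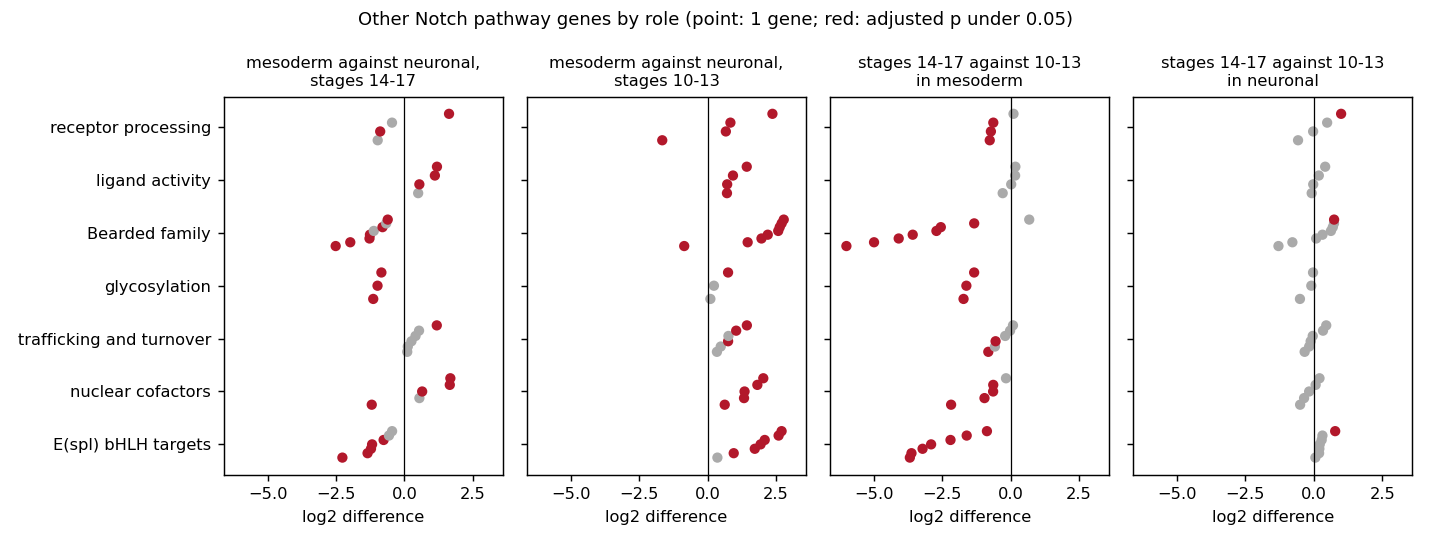
Log2 differences of the other pathway genes by role in 4 wild-type comparisons; each point is 1 gene and red points have an adjusted p under 0.05. All Bearded family and E(spl) bHLH genes but E(spl)m6-BFM lie right of 0 early, all lie left of 0 late in mesoderm against neuronal, and reach −6.0 between the stages in mesoderm.

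Degraded and control libraries of mesoderm at stages 14-17 were compared in the second set. There Nslmb acts on protein, so the Ubx transcript does not check the labels. Ubx protein is not measured in these data. The controls lack the driver, so loss of Ubx cannot be told apart from effects of the driver or of Nslmb itself. Ser alone of the 7 genes passed the test, beside 3.57% of all 11641 genes tested that were higher and 1.21% that were lower. In the class of Ser, with a span of 2 to 4 times the exonic length, 8.84% of 984 tested genes were higher. The level of Ser was 65.1, 69.8 and 75.2 CPM in degraded libraries, against 41.6, 40.9 and 46.6 CPM in controls. Every degraded library lay above every control, and the difference was 0.70 ± 0.12 on the log2 scale, or 1.63-fold (adjusted p = 0.0225). The call was lost without control replicate 1 or 2 or degraded replicate 2 or 3, at adjusted p of 0.0615, 0.127, 0.101 and 0.0684, while the log2 value stayed between 0.67 and 0.77. A list of 5 epidermis and trachea markers moved with it, summing to 1667 to 2036 CPM in degraded libraries and 811 to 959 CPM in controls, with serp, verm and shg called higher by 1.26 ± 0.15, 0.97 ± 0.14 and 0.85 ± 0.11. Mitochondrial counts were 0.874 to 1.06% in degraded libraries and 1.39 to 5.95% in controls. The part of these markers, of mitochondrial counts or of gene structure in the difference of Ser was not tested.

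N stood at 125, 130 and 154 CPM in degraded libraries, against 112, 99.9 and 97.7 CPM in controls. These groups did not overlap either, but how many of all genes separate in this way was not counted. The log2 difference of N, 0.40 ± 0.13, did not pass (adjusted p = 0.105). The values of neur were 31.5, 38.8 and 48.8 CPM in degraded libraries and 31.4, 30.2 and 31.8 CPM in controls, which overlapped. fng held 25.6, 20.5 and 26.7 CPM in degraded libraries, against 15.5, 19.0 and 20.6 CPM in controls, where the lowest degraded library lay just under the highest control. Both differences missed the threshold, with 0.35 ± 0.17 for neur and 0.40 ± 0.17 for fng (adjusted p = 0.238 and 0.178).

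For sca the levels were low, at 8.77, 6.49 and 5.78 CPM in degraded libraries and 6.75, 4.86 and 5.48 CPM in controls. Su(H) stood at 7.80, 8.05 and 9.30 CPM in degraded libraries and 8.85, 8.63 and 4.04 CPM in controls, and control replicate 3 lay below the other 5 libraries. H stood at 48.2, 60.6 and 69.3 CPM in degraded libraries and 63.7, 57.9 and 48.3 CPM in controls. All 3 genes overlapped between the groups, with log2 differences of 0.30 ± 0.22 for sca, 0.22 ± 0.28 for Su(H) and 0.07 ± 0.17 for H (adjusted p = 0.438, 0.687 and 0.85). Without control replicate 3 the values of Su(H) and H turned to −0.054 and −0.029. Counts behind these values ran from 95 for Su(H) to 3814 for N.

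Of the other pathway genes 37 were tested in this set, and 1 was lower, or 2.70% beside 1.21% of all tested genes, and 0 were higher. E(spl)m4-BFM, of the Bearded family, averaged 2.60 ± 0.93 CPM in degraded libraries and 6.78 ± 1.18 CPM in controls (SD, n = 3), and fell by 1.38 ± 0.28 (adjusted p = 0.0339). The median log2 difference over the 37 was −0.04, beside −0.01 over all genes.

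**Figure D5:**
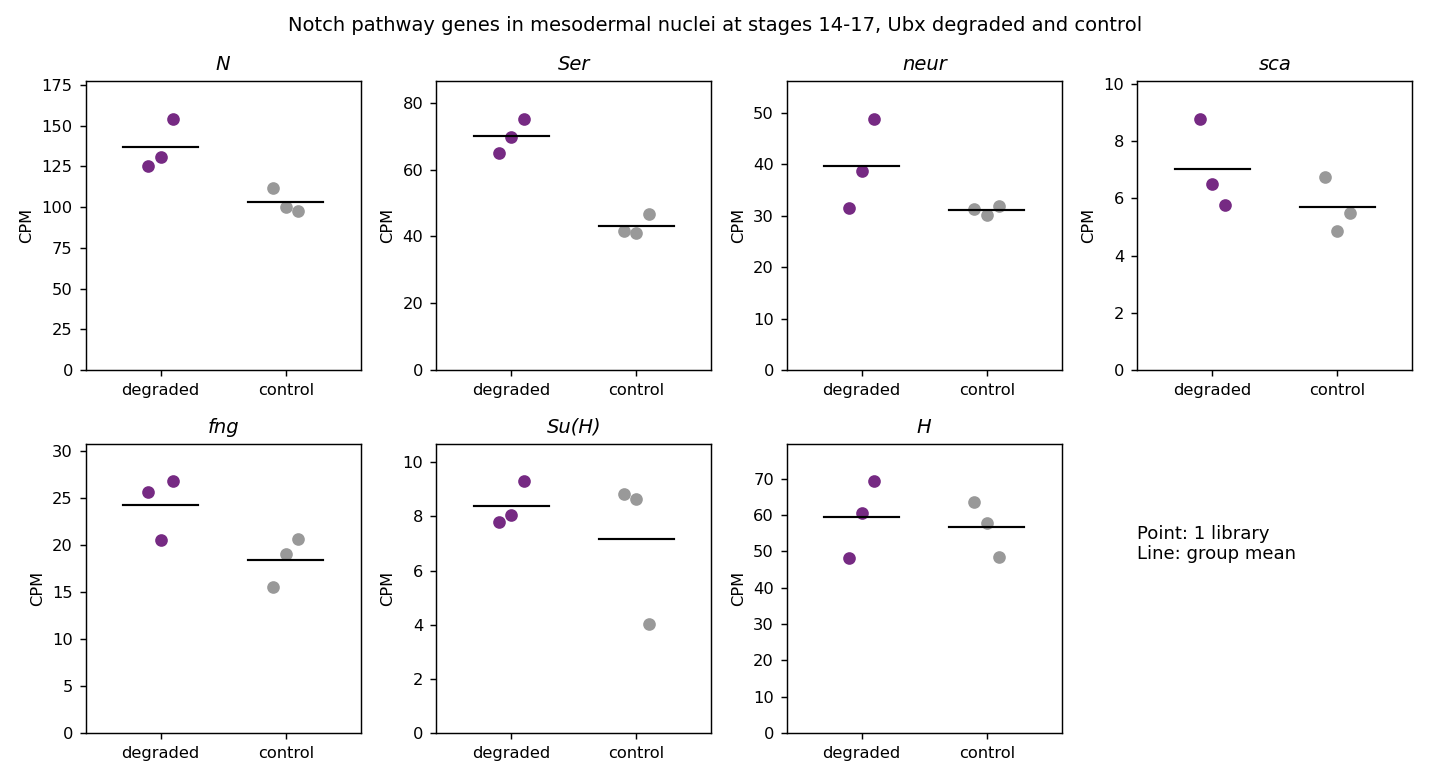
CPM of the 7 genes in the 3 degraded and 3 control libraries of mesoderm at stages 14-17, on axes from 0; each point is 1 library and each line a group mean. Ser, the only gene past the threshold, stood at 65.1 to 75.2 CPM in degraded libraries against 40.9 to 46.6 CPM in controls.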

How the data were processed

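RNA-seq libraries from INTACT nuclei were deposited as raw counts per gene, which the authors made with HTSeq, with FastQC and builds BDGP6 and dm6 also named per the submitters' processing notes. Neither these notes nor the labels name the aligner, strand setting or annotation. Wild-type tables list 14156 genes and those of the second set 15682, with 13765 in both, so each set was fitted alone. Lines of unassigned reads, in the second set only, were left out, and 42.7 to 48.9% of its reads were assigned to genes. Symbols and coordinates came from Ensembl release 115, with symbols for 98.4 and 95.7% of genes. Genes passing filterByExpr (minimum count 10, minimum total 15) were tested by edgeR 4.0.16 with TMM factors, its quasi-likelihood test and Benjamini-Hochberg adjustment at 5% over all genes tested, with 4 residual degrees of freedom a set. SE is the log2 value over the root of F. Alternatives used RLE factors, library totals, no filter, DESeq2 1.42.0, limma 3.58.1 (voom), a replicate block, other sets of libraries and each library left out. Scripts ran in R 4.3.3 and Python 3.11.15, and fits were tested on simulated data. The 7 genes and the lists were chosen with earlier results of these data known. Named list genes are, per comparison, those with the largest and smallest log2 change past the threshold, and further ones were added for contrast after their values were seen. Replicate pairs differed beyond sampling noise, so no library was a copy. Promoter motifs are not analysed here.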

Additional observations from a re-analysis of the deposited data

Results flagged for a closer look

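For 5 of the 7 genes the stage change in mesoderm differed from that in neuronal libraries by an adjusted p under 0.05 for the interaction term. The difference was −2.12 for N, −1.52 for neur, −2.93 for sca, −1.0 for Su(H) and −0.81 for H on the log2 scale. For Su(H) it joined a mesodermal difference of −0.58 and a neuronal one of 0.42, neither of which passed on its own. Groups of 2 or 3 libraries are too small for a search for single libraries far from the others.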

How the results depend on the processing

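The calls of N, neur, sca and H in early mesoderm against neuronal, of N, neur and sca between stages in mesoderm, and of N, neur and sca in the difference of stage changes held in all alternatives run. Counts of called genes moved by over 1.5 times in several. A fit of only the 4 libraries compared gave 2810 genes in the late tissue comparison (main 4340) and 765 in the neuronal stage comparison (main 2154), where 0 of the 7 genes passed. A single fit of all 14 libraries gave 3274 in the neuronal stage comparison and 180 for Ubx degradation (main 557), where 0 of the 7 passed, and DESeq2 gave 1212 there. Fewer samples or genes enter the first of these by construction. Otherwise the cause was not tested. Leaving out each library in turn gave 1328 to 5647 genes in the late tissue comparison, 2862 to 6267 between stages in mesoderm, 386 to 4231 in neuronal libraries, 2000 to 5261 for the difference of stage changes and 34 to 1645 for degradation. Over the same fits 0 to 4, 3 to 6, 1 to 2, 3 to 6 and 0 to 1 of the 7 genes passed. The lowest count for degradation came without control replicate 2 and the highest without control replicate 3.

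In the wild-type set same-numbered deviations correlated from −0.12 to 0.24, which gave no clear pairing by replicate number. In the second set such deviations correlated at 0.257, 0.0915 and 0.28, and every library correlated best with its own number. The labels do not say whether the numbers mark a shared batch, and the main test did not use them. With the replicate number as a block, 1238 genes were called for degradation, where the call of Ser held, and 3 of the 7 genes for the difference of stage changes, where Su(H) and H missed the threshold at adjusted p of 0.0504 and 0.0562. It moved no other count by over 1.5 times.

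Values near 0 changed sign, all of them uncalled. Library totals alone moved the median over all genes from −0.08 to −0.33 early and from −0.12 to −0.42 late between tissues, and turned Ser to −0.083 and fng to −0.015 early, H to −0.013 late, and neur to −0.049 and H to −0.0023 between neuronal stages. Leaving out single libraries gave −0.029 to 0.46 for Ser early, −0.17 to 0.0017 for sca late, −0.46 to 0.015 for fng between neuronal stages, and −0.054 to 0.41 for Su(H) and −0.035 to 0.21 for H under degradation. Of all values of the 7 genes under the alternatives, 589 kept direction and side of the threshold, 25 lost it, 19, each of Su(H) or fng, passed it newly and 11 turned. With 2 or 3 libraries a group and 4 residual degrees of freedom, differences near or under the replicate spread could not be detected.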

Other observations

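Wild-type mesoderm and the controls of the second set are both labelled mesoderm at stages 14-17, but come from tables made and scaled apart, so their levels are not comparable. The mean CPM in wild-type mesoderm over that in controls was 1.49 for H, 3.09 for Ser, 3.28 for sca, 3.88 for Su(H), 4.99 for N, 7.19 for neur and 12.3 for fng. Over 220 genes with a span of more than 8 times their exonic length, the class of fng, the median log2 ratio was 1.65. Over the 2362 genes of the class of H it was 0.65. The medians did not rise steadily with span over exonic length. They were 0.72 for genes without an intron and 0.49 in the class of Su(H). For ratios of 2 to 4, the class of N and Ser, the median was 0.39, and for 4 to 8 it was 0.85. N stood at 2.31, Ser at 1.61 and fng at 3.55, above the medians of their classes, and H at 0.57, below its own.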
